A study of Mus musculus with 6 samples.

Results

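The 10 genes described here encode PD-1, its ligands and the B7 and CD28 proteins around them. They are Cd274, Pdcd1lg2, Cd80, Cd86, Cd276, Icosl, Vsir, Pdcd1, Ctla4 and Cd28. They were taken as the rows with these symbols in the authors' comparison tables, and 10 of 10 were found among the 27179 genes counted in each sample. Bulk RNA was sequenced from untreated C57BL/6 mice in 3 groups of 2 libraries. Normal pancreas was the whole organ. H7 tumours grew from PANC02-H7 cells and UNKC tumours from UN-KC-6141 cells, which had been placed surgically into the pancreas and were taken out 20 days later. Both are mouse pancreatic cancer lines, so each tumour group stands for 1 line, and the tumours also contain host immune, stromal and vessel cells. The labels give no age, and they do not say whether the libraries of a group came from separate mice. The p-values therefore measure only the spread between these libraries, which may be technical.

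B7 proteins on antigen-presenting cells and tumour cells bind receptors of the CD28 group on T cells. CD80 and CD86 give the second activating signal through CD28, and the same ligands are held more tightly by CTLA-4, which limits it. PD-L1 (Cd274) and PD-L2 (Pdcd1lg2) bind PD-1 (Pdcd1) and dampen signalling from the T cell receptor. PD-L1 is made by many cell types after exposure to interferon-gamma, while PD-L2 is best known from dendritic cells and macrophages. Pancreatic cancer is known for a dense stroma rich in myeloid cells and for few T cells.

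The neighbouring ligand genes Cd274 and Pdcd1lg2 are shown first, because Pdcd1lg2 had the largest difference of the 10 genes between the tumour lines while Cd274 did not pass that test. They lie on chromosome 19, Cd274 (gene ID 60533) from 29362107 to 29388095 and Pdcd1lg2 (gene ID 58205) from 29410919 to 29472927, with 22.8 kb between them. The windows below run from 250 bases before to 50 bases after an annotated start, at chr19:29367188-29367487 for Cd274 and chr19:29410669-29410968 for Pdcd1lg2. The Cd274 window lies inside the span given above, so the start it uses is not the first base of that span, 29362107. Both are on the plus strand and come from RefSeq on GRCm38.p6, the assembly that mm10 names. Capitals mark the match to GAAANNGAA, the core of the interferon-stimulated response element, here read from the other strand.
Cd274: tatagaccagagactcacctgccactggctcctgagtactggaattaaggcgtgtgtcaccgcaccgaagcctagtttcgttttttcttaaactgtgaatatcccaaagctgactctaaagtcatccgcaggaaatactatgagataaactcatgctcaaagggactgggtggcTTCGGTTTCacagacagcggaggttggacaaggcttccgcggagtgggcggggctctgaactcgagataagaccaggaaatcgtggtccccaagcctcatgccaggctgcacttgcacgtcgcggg
Pdcd1lg2: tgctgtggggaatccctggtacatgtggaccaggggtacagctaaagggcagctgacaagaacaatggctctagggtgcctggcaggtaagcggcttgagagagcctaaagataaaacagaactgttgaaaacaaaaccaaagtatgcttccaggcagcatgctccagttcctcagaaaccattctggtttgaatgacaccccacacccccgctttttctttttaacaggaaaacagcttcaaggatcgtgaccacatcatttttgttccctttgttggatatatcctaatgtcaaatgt
The match in Cd274 lies 76 to 68 bases before the start that its window uses, and so inside the gene span given above. RefSeq windows were found for 8 of the 10 genes (not for Cd28 and Cd86), and 2 of the 8 held a match, Cd274 and Ctla4. In Ctla4 the matched letters are TTCAGTTTC, 166 to 158 bases before the start. Searched on both strands, GAAANNGAA occurs in 8.56% of 32851 RefSeq promoter windows of the same length. TTCNNNGAA, the gamma-activated site, occurs in 8.30% and GGGANTTTC, an NF-kB form, in 1.11%, and neither was found in the 8 windows. GAAANNGAA and TTCNNNGAA can overlap in the bases GAA. The other genes lie, in GRCm38.p6, at 60746388 to 60773359 (Cd28), 60909025 to 60915832 (Ctla4) and 94038305 to 94052553 (Pdcd1) on chromosome 1. Vsir spans 60346851 to 60430294 and Icosl 78069368 to 78079525 on chromosome 10. Cd86 spans 36568956 to 36666158 and Cd80 38457430 to 38495958 on chromosome 16, and Cd276 spans 58524300 to 58555033 on chromosome 9. All values are counts over whole genes, so they do not separate exons or isoforms.

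The tumour libraries held 33332516 to 40507546 counted reads and the normal libraries 12077320 and 8204225, of which ribosomal RNA took 86.4% and 85.0% (20.1% to 27.8% in the tumours). Each normal library held at most 9 read pairs of any of the 10 genes, against 13 to 1364 in the tumours. Comparisons with normal pancreas therefore rest on few molecules. CPM are counts per 1e6 reads of the library size after TMM scaling, which sets the bulk of genes equal between libraries, so changes against normal pancreas are relative to that bulk. When libraries are scaled by their total counts instead, the median log2 fold change of all genes moves from 0.34 to 3.61 in H7 and from 0.42 to 3.77 in UNKC tumours. Markers of acinar cells, the enzyme-secreting cells of the pancreas, summed to 12709 and 13120 CPM in normal pancreas and to 4.51 to 42.9 in the tumours. Skeletal muscle markers summed to 458 CPM in H7 replicate 2 and to 1739 in UNKC replicate 2, against 1.12 to 10.1 in the other 4 libraries. Without these 2 libraries, with 1 residual degree of freedom left, 0 of 15969 genes passed the edgeR test in any comparison (6144, 5913 and 2319 at an unadjusted p under 0.05), so only the log2 values are given for that fit.

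**Figure D1:**
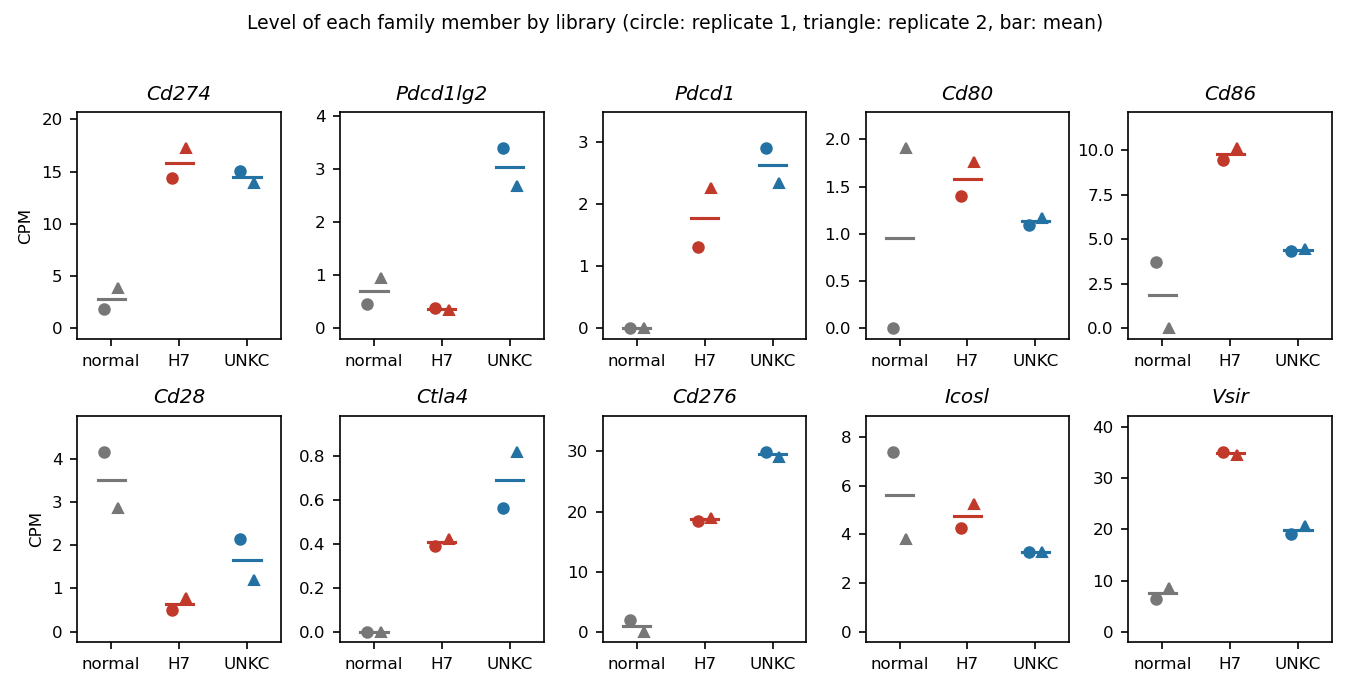
CPM of each of the 10 genes (vertical axes, each with its own scale) in the 6 libraries, by group (horizontal axes), with a bar at the group mean. The tumour libraries lie above both normal libraries for Cd274, Pdcd1, Cd86, Ctla4, Cd276 and Vsir. For Ctla4 this cannot be read as a difference: its highest tumour value, 0.820 CPM, is below the 0.926 and 0.954 CPM that 2 reads make in the normal libraries.

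The first question was which of these genes differ between H7 tumours and normal pancreas. Cd274, Cd276, Vsir, Cd86 and Pdcd1 were higher in H7 tumours and Cd28 was lower, at an adjusted p under 0.05 in the edgeR quasi-likelihood test over all 16306 tested genes. That is 5 of 10 higher and 1 of 10 lower, beside 29.6% of all tested genes higher and 21.9% lower. The median log2 fold change of the 10 genes was 2.30, and that of all tested genes was 0.34. Pdcd1lg2, Cd80, Icosl and Ctla4 did not pass the test. In a bulk sample, more cells that carry a gene and more RNA per cell cannot be told apart.

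The same question was asked of UNKC tumours, against the same 2 normal libraries. Cd274, Cd276, Vsir, Pdcd1 and Pdcd1lg2 were higher, and no member passed the test as lower with edgeR (0 at an unadjusted p under 0.05, 0 with limma-voom and 1, Icosl, with DESeq2). That is 5 of 10 higher, beside 29.1% of all tested genes higher and 19.3% lower. The median over the 10 genes was 1.76, against 0.42 over all tested genes. Both comparisons share their normal libraries, so their agreement is not independent.

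The tumour lines were then compared directly. Vsir was higher in H7 tumours and Pdcd1lg2 was higher in UNKC tumours, which makes 1 of 10 in each direction, beside 7.06% of all tested genes higher and 11.1% lower in H7. The median log2 difference over the members was -0.21, against -0.02 over all tested genes. The other 8 members did not pass this test.

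Among the ligands of PD-1, Cd274 stood at 14.4 and 17.2 CPM in H7 tumours, 15.0 and 13.9 in UNKC tumours, and 1.85 and 3.82 in normal pancreas. The tumour libraries of the lines overlap, and all lie above both normal libraries. The log2 fold change against normal pancreas was 2.49 ± 0.32 (SE, n = 2 libraries a group throughout) in H7 (edgeR adjusted p = 0.00152) and 2.36 ± 0.32 in UNKC tumours (edgeR adjusted p = 0.00198). From pooled read pairs, 1175 in H7 and 6 in normal pancreas, the fold was 5.67 with a 95% counting interval of 2.60 to 15.5 (exact binomial, counting error only). For UNKC tumours it was 5.16 (2.36 to 14.1), from 1277 pairs. Between the lines the log2 difference was 0.13 ± 0.23 (edgeR adjusted p = 0.760), and the counting interval of the fold ran from 1.02 to 1.19. Without the 2 libraries with muscle reads the log2 values were 2.34 and 2.39 against normal pancreas and -0.057 between the lines.

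Pdcd1lg2, which encodes the second PD-1 ligand, stood at 0.377 and 0.347 CPM in H7 tumours and at 3.40 and 2.69 in UNKC tumours. Normal pancreas had 0.463 and 0.954 CPM from 1 read pair in each library. The UNKC libraries lie apart from the other 4, which are close together. Between the lines the log2 difference was -3.07 ± 0.33 (edgeR adjusted p = 0.00207), or 8.53-fold higher in UNKC from 265 against 26 read pairs (counting interval 5.69 to 13.3). The value was -3.16 without the libraries with muscle reads, and it stayed past the threshold with each single library left out (edgeR adjusted p up to 0.0449). Against normal pancreas the log2 fold change was 2.11 ± 0.60 in UNKC tumours (edgeR adjusted p = 0.0241), but the counting interval of the pooled fold of 3.21 ran from 0.880 to 26.6. That call ended with upper-quartile factors (adjusted p = 0.0540), in DESeq2 (0.0598), on the authors' fragment counts (0.0527), in thinned tumours (0.0844) and without UNKC replicate 1 (0.0934) or normal replicate 1 (0.0739). In H7 tumours it was -0.96 (edgeR adjusted p = 0.335), and 2.31 when libraries were scaled by total counts.

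The share of Pdcd1lg2 among the read pairs of both ligand genes does not depend on the scaling of libraries. It was 2.52% (95% exact binomial interval 1.35 to 4.27) and 1.90% (1.01 to 3.22) in the H7 libraries. In the UNKC libraries it was 18.1% (15.6 to 20.9) and 16.1% (13.5 to 19.0). The intervals of the lines do not overlap. This ratio, and those of Cd80 to Cd86 and of Ctla4 to Cd28, were chosen after the values had been seen. Between the lines epithelial markers differed in the same direction as Pdcd1lg2: 4 of 6 were lower in H7 than in UNKC tumours, beside 11.1% of all tested genes. Their sum was 382 to 395 CPM in H7, 952 to 1140 in UNKC and 159 to 222 in normal pancreas. In H7 tumours against normal pancreas 2 of the 6 were higher and 1 lower, beside 29.6% and 21.9% of all tested genes, where Pdcd1lg2 was at -0.96 and did not pass. All 6 markers had reads in every library, and their part in the Pdcd1lg2 difference was not tested. Dendritic cell markers summed to 66.8 and 80.7 CPM in H7 tumours, 26.8 and 27.5 in UNKC tumours and 25.0 and 29.1 in normal pancreas, but most of the tumour sums came from Itgax, which macrophages also carry. Without Itgax the other 7 markers summed to 6.97 and 11.6 CPM in H7, 6.26 and 8.50 in UNKC, and 23.1 and 26.2 in normal pancreas. Most of the normal sums came from Zbtb46 alone, at 13.0 and 23.4 CPM, while Xcr1 and Flt3 had reads in every tumour library and none in normal pancreas. Of the 7 markers tested, Itgax alone was higher in each tumour group and higher in H7 than in UNKC, and Zbtb46, a transcription factor of conventional dendritic cells, was lower in both (-3.84 and -3.47). In the normal libraries 3 and 4 of the 8 markers had no read.

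**Figure D2:**
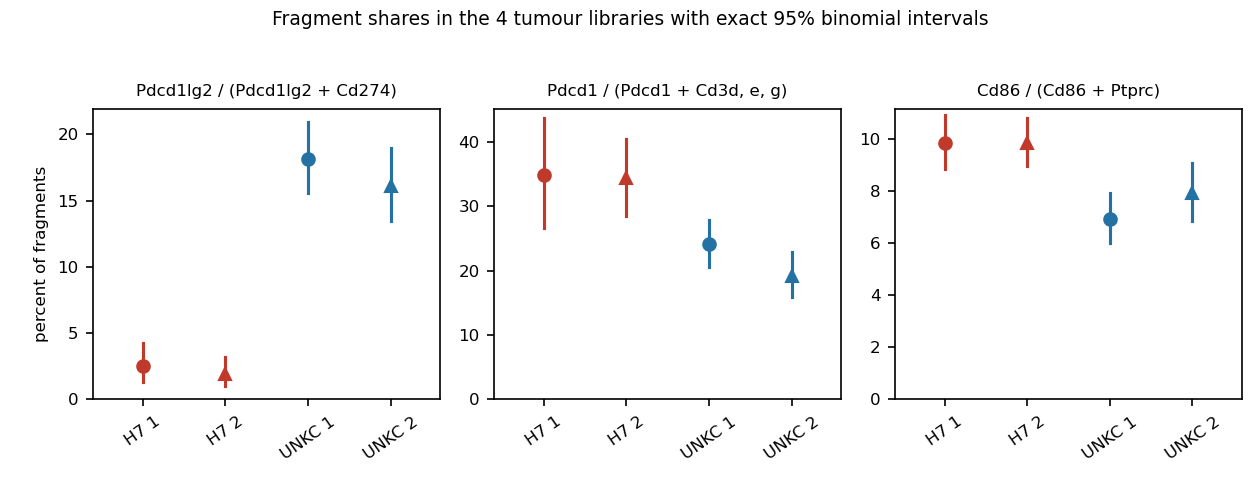
Shares of read pairs in percent (vertical axes) in the 4 tumour libraries (horizontal axes), with exact 95% binomial intervals as lines. Pdcd1lg2 makes up 16.1% or more of the pairs of both PD-1 ligands in UNKC and 2.52% or less in H7, while Pdcd1 beside the CD3 genes and Cd86 beside Ptprc have higher shares in the H7 libraries, with overlapping intervals for Pdcd1 in replicate 1 of each line and for Cd86 between UNKC replicate 2 and both H7 libraries.

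Cd80 and Cd86 encode the ligands that CD28 and CTLA-4 share. Cd86 stood at 9.46 and 10.1 CPM in H7 tumours, 4.32 and 4.47 in UNKC tumours, and 3.70 and 0 in normal pancreas, where 4 read pairs came from replicate 1 alone. The H7 libraries lie above the UNKC libraries, and the lower of these is close to the higher normal value. Against normal pancreas the log2 fold change was 2.38 ± 0.75 in H7 (edgeR adjusted p = 0.0391; pooled fold 5.22, counting interval 2.03 to 19.2) and 1.23 in UNKC tumours (edgeR adjusted p = 0.245). The H7 call ended with RLE factors (0.0534), upper-quartile factors (0.0714), only the 4 libraries compared (0.0586), fragment counts (0.0739) and thinned tumours (0.0763). It also ended without H7 replicate 1 (0.116), H7 replicate 2 (0.114) or UNKC replicate 1 (0.0643).

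Between the lines Cd86 was at 1.15 ± 0.49 log2 units (edgeR adjusted p = 0.172), with a counting interval of 1.98 to 2.55 around a pooled fold of 2.24. This difference did pass the test when only the 4 tumour libraries were fitted (1.17 ± 0.12, edgeR adjusted p = 0.00553), in DESeq2 (adjusted p = 2.36e-08) and in limma-voom (adjusted p = 0.0322). DESeq2 and limma-voom were fitted to all 6 libraries, as was the main fit. Why these fits differ was not tested. Beside Ptprc (CD45, carried by all leukocytes), Cd86 made up 9.86% of the pairs of both genes in each H7 library and 6.93% and 7.93% in UNKC, with the interval of UNKC replicate 2 (6.88 to 9.08) reaching those of both H7 libraries (8.87 to 10.9 and 8.96 to 10.8). Beside Csf1r, the growth factor receptor of macrophages, it made up 5.97% and 7.50% in H7 and 7.42% and 7.38% in UNKC, where the values overlap between the lines.

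Cd80 was low throughout, at 1.40 and 1.76 CPM in H7 tumours, 1.10 and 1.17 in UNKC tumours, and 0 and 1.91 in normal pancreas. The groups overlap with normal pancreas, and no comparison passed the test: the log2 values were 0.75 in H7 (edgeR adjusted p = 0.558), 0.27 in UNKC (0.844) and 0.48 between the lines (0.584). Of the pairs of Cd80 and Cd86 together, Cd80 made up 13.0% (9.80 to 16.9) and 14.9% (11.8 to 18.5) in H7 and 20.8% (15.9 to 26.4) and 20.5% (15.6 to 26.2) in UNKC tumours. These intervals overlap between the lines.

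Cd276 encodes B7-H3, a B7 protein without an agreed receptor that is found on many solid tumours. It stood at 18.5 and 18.9 CPM in H7 tumours, 30.0 and 29.1 in UNKC tumours, and 1.85 and 0 in normal pancreas, where 2 read pairs were counted in all. The 3 groups do not overlap. The log2 fold change was 4.31 ± 0.69 in H7 (edgeR adjusted p = 0.00251) and 4.97 ± 0.67 in UNKC tumours (edgeR adjusted p = 0.00142). The pooled folds of 20.1 and 31.8 have wide counting intervals, from 5.55 to 166 and from 8.78 to 262. Between the lines the value was -0.66 ± 0.40 (edgeR adjusted p = 0.322). As for Cd86, it passed when only the tumour libraries were fitted (-0.65 ± 0.08, edgeR adjusted p = 0.00787), in DESeq2 (adjusted p = 2.97e-08) and in limma-voom (adjusted p = 0.0334).

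Vsir encodes VISTA, an inhibitory B7-like protein of myeloid cells and T cells. It had 35.3 and 34.5 CPM in H7 tumours, 19.0 and 20.8 in UNKC tumours, and 6.48 and 8.59 in normal pancreas, from 17 read pairs in the normal group. The 3 groups do not overlap. The log2 fold change was 2.21 ± 0.19 in H7 (edgeR adjusted p = 0.000394) and 1.40 ± 0.19 in UNKC tumours (edgeR adjusted p = 0.00195). The direct difference was 0.81 ± 0.16 (edgeR adjusted p = 0.0207), 1.76-fold from pooled pairs (1.65 to 1.87). It fell short of the threshold without any 1 of the 4 tumour libraries (edgeR adjusted p from 0.0829 to 0.161) and with total counts (0.132), while its size stayed between 0.74 and 0.87 in all of those fits.

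The summed macrophage and monocyte markers had the same order over the 3 groups as Vsir and Cd86, but not every marker did. Of 11 such markers 9 were higher in H7 and 7 in UNKC tumours than in normal pancreas, beside 29.6% and 29.1% of all tested genes. Between the lines 3 were higher in H7 (Csf1r, C1qa and C1qc) and Cd14 was lower, beside 7.06% and 11.1% of all tested genes. Mrc1 was also lower in H7, at -0.67, and did not pass (edgeR adjusted p = 0.0815). With total counts none of the 3 passed, beside 3.97% of all genes higher, and 1 marker passed as lower, beside 9.13%. DESeq2 called 6 higher and 2 lower, beside 16.7% and 16.5% of all genes. limma-voom called 7 higher and 2 lower, beside 14.4% and 16.7%. The summed level of the markers was 615 to 660 CPM in H7, 367 to 377 in UNKC and 66.7 to 129 in normal pancreas, where 3 and 1 of the markers had no read. Their part in the differences of Vsir and Cd86 was not tested.

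Icosl encodes the ligand of ICOS, a costimulatory receptor of activated T cells. Its levels were 4.27 and 5.25 CPM in H7 tumours, 3.28 and 3.28 in UNKC tumours, and 7.41 and 3.82 in normal pancreas. Both tumour groups lie within or near the range of the normal libraries. The log2 values were -0.24 in H7 (edgeR adjusted p = 0.615), -0.78 in UNKC (0.137) and 0.54 ± 0.29 between the lines (0.274). With total counts both values turned, to 3.10 in H7 and 2.63 in UNKC tumours, below the median of all genes at that scaling.

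**Figure D3:**
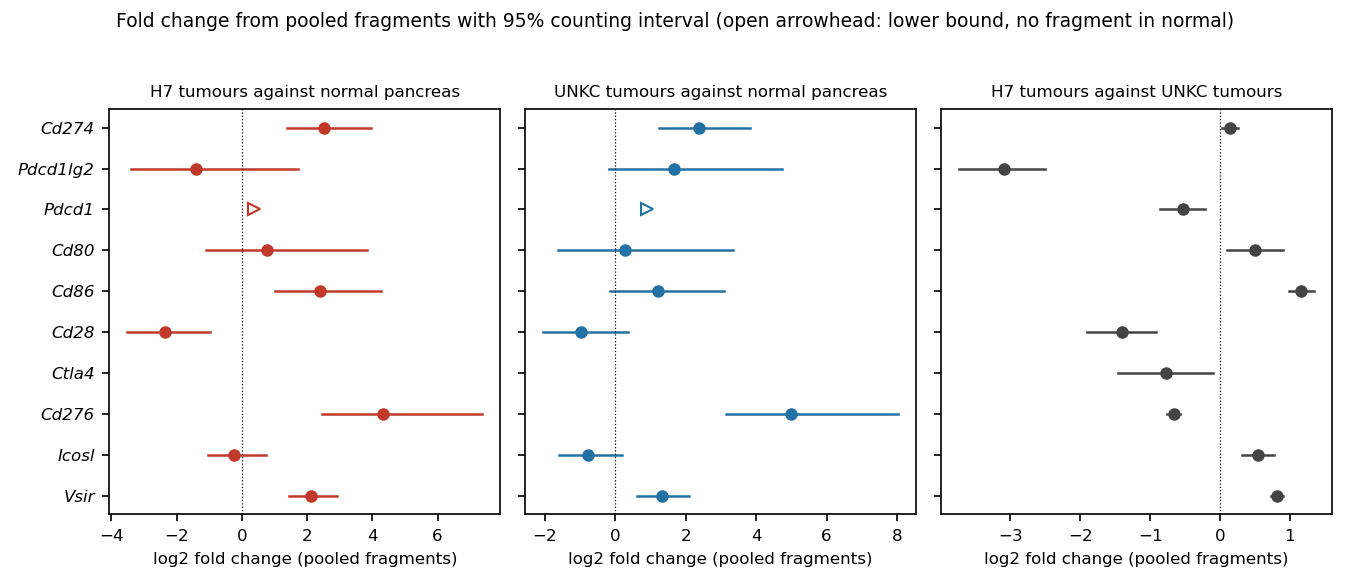
Log2 fold changes from pooled read pairs (horizontal axes) of the 10 genes in the 3 comparisons, with 95% counting intervals as lines that hold no replicate spread. Open arrowheads mark Pdcd1 at its fold over a floor of 3 pairs, because normal pancreas had no pair, and Ctla4 has no such value above equality there. Pdcd1lg2 lies farthest from 0 between the lines, at 26 pairs in H7 against 265 in UNKC.

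Among the receptors, Pdcd1 had no read in either normal library. It stood at 1.30 and 2.26 CPM in H7 tumours and at 2.90 and 2.34 in UNKC tumours. Every tumour library lies above normal pancreas, and the lines come close to each other. Against a floor of 3 read pairs over the normal group, Pdcd1 was at least 1.28-fold higher in H7 (edgeR adjusted p = 0.0390) and at least 1.86-fold higher in UNKC tumours (edgeR adjusted p = 0.0248). The H7 call is fragile: among other settings it ended on fragment counts (0.0911), in thinned tumours (0.104) and with the replicate block (0.0799). It also ended without any single library other than H7 replicate 1 (0.0575 to 0.0843). The UNKC call ended with the replicate block (0.0506) and without UNKC replicate 1 (0.0689) or UNKC replicate 2 (0.0589). Between the lines the log2 value was -0.55 ± 0.39 (edgeR adjusted p = 0.419), and -1.15 without the libraries with muscle reads.

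Ctla4 encodes the inhibitory counterpart of CD28. It had 0.391 and 0.424 CPM in H7 tumours, 0.565 and 0.820 in UNKC tumours, and no read in normal pancreas. The depth of the normal libraries allows no lower bound above equality, and the test did not pass in H7 (edgeR adjusted p = 0.194) or UNKC tumours (0.118). Between the lines the log2 value was -0.76 ± 0.43 (edgeR adjusted p = 0.307). It lies 136 kb from Cd28 on chromosome 1.

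Cd28 encodes the activating receptor itself. It had 0.507 and 0.770 CPM in H7 tumours, 2.15 and 1.18 in UNKC tumours, and 4.17 and 2.86 in normal pancreas, from 4 and 3 read pairs. The H7 libraries lie below the other 4. The log2 fold change in H7 was -2.45 ± 0.64 (edgeR adjusted p = 0.0202; pooled fold 0.194, counting interval 0.0874 to 0.510), but 0.87 with total counts. That call also ended without H7 replicate 1 (0.0788) or normal replicate 1 (0.0991). In UNKC tumours it was -1.08 ± 0.59 (edgeR adjusted p = 0.186), and between the lines -1.38 ± 0.44 (edgeR adjusted p = 0.0856).

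B cell and lymph node markers moved the same way as Cd28. All 8 B cell markers were lower in H7 libraries than in the normal ones and 5 of 8 in UNKC libraries, beside 21.9% and 19.3% of all tested genes. With total counts 3 of 8 passed as lower in H7, beside 3.21% of all tested genes, and in UNKC the median of the list turned from -3.06 to 0.28. The summed level of the B cell markers was 2.04 to 2.27 CPM in H7, 4.24 to 8.88 in UNKC and 37.0 to 58.2 in normal pancreas. Ms4a1 (CD20) had no read in H7 replicate 1, and Pax5 had none in normal replicate 1. Of the lymph node list Cxcl13 and Cr2, a chemokine and a complement receptor of B cell follicles, were lower in both tumour groups (in UNKC tumours at 0.44 and 0.66 with total counts), while Ccl21a and Ccl19 had no read in any library. The part of these cells in the Cd28 result was not tested.

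T cell markers give the scale for the receptors. Their sum over 11 genes was 11.3 to 16.0 CPM in H7, 32.0 to 35.4 in UNKC and 8.33 to 11.9 in normal pancreas, where 3 and 4 of them had no read. Against normal pancreas 1 of the 11 passed as higher in H7 and 2 in UNKC tumours, beside 29.6% and 29.1% of all tested genes, and 0 as lower in either. Between the lines 0 were higher and 2 lower in H7, beside 7.06% and 11.1%. Cd8a, the co-receptor of cytotoxic T cells, was higher in both tumour groups than in normal pancreas and lower in H7 than in UNKC tumours. Cd3d, with no read in normal pancreas, passed as higher in UNKC tumours (edgeR adjusted p = 0.0222), at 1.58-fold over a floor of 3 read pairs. Cd5 passed as lower in H7 than in UNKC tumours. Of the pairs of Pdcd1 and the 3 CD3 genes together, Pdcd1 made up 34.9% (26.7 to 43.8) and 34.4% (28.6 to 40.5) in H7 tumours. In UNKC tumours it made up 24.1% and 19.2% (15.9 to 22.9 for the second). Beside CD3, Pdcd1 was thus higher in both H7 libraries, although its CPM was not, and the intervals of H7 replicate 1 and UNKC replicate 1 overlap. Ctla4 beside CD3 was 13.4% and 8.70% in H7 and 5.72% and 7.56% in UNKC, with overlapping intervals. Cd28 beside CD3 was 16.8% and 15.2% in H7 and 19.1% and 10.9% in UNKC, with no separation of the lines. In normal pancreas the CD3 genes had 3 read pairs in all, so no share can be read there.

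**Figure D4:**
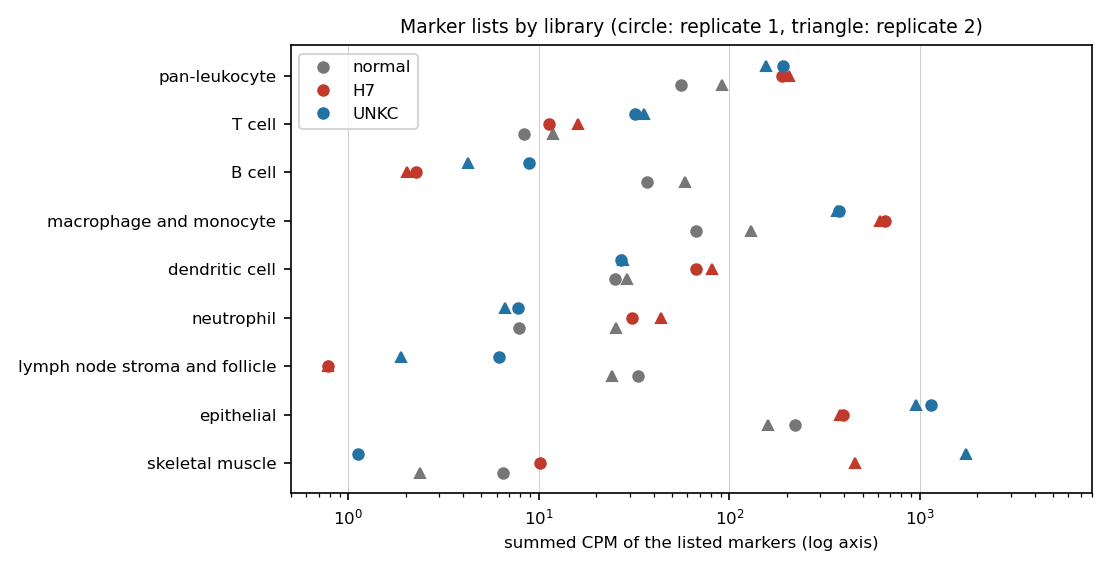
Summed CPM of marker lists (log horizontal axis) for 9 lists (vertical axis), with 1 point for each library, coloured by group. Macrophage markers are highest in H7 tumours at 615 to 660 CPM, T cell markers in UNKC tumours at 32.0 to 35.4, B cell markers in normal pancreas at 37.0 to 58.2, and muscle markers in replicate 2 of each tumour group.

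To set the genes beside each other, the authors' TPM values were used, which correct for gene length. In H7 tumours Vsir was highest at 30.8 ± 0.195 TPM (SD, n = 2), followed by Cd276 at 25.2 ± 0.431. Cd274 at 18.7 ± 2.39 and Cd86 at 16.5 ± 0.905 came next and overlap. Icosl followed at 7.45, then Cd80 at 4.01 and Pdcd1 at 3.95, which overlap. Ctla4 at 0.872, Cd28 at 0.626 and Pdcd1lg2 at 0.444 closed the order.

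In UNKC tumours Cd276 led at 44.2 ± 0.282 TPM. Vsir at 19.5 ± 1.47 and Cd274 at 18.9 ± 0.643 followed and overlap. Cd86 stood at 8.17, Pdcd1 at 6.40 and Icosl at 5.69, the last pair not separated. Pdcd1lg2 at 4.17 lay above Cd80 at 3.17, and Cd28 at 1.83 and Ctla4 at 1.66 overlap. The 2 lines thus share Cd276, Vsir, Cd274 and Cd86 as their highest 4, and Pdcd1lg2 is last in H7 but above Cd80, Cd28 and Ctla4 in UNKC tumours. In normal pancreas all 10 genes were at 0.815 TPM or below, and only the step from Vsir at 0.673 to Cd274 at 0.322 was clear of the spread. TPM hold no TMM scaling, so they order genes within a group and are not a comparison between tumours and normal pancreas. Icosl stood at 0.815 TPM in normal pancreas and 7.45 in H7 tumours, but at a mean of 5.61 and 4.76 CPM.

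**Figure D5:**
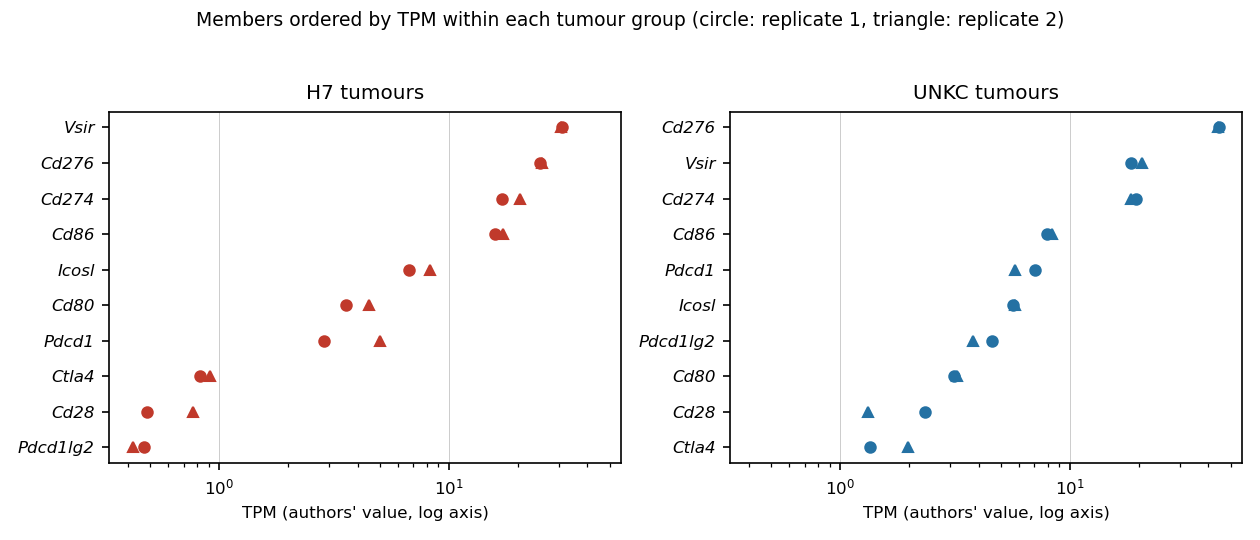
The authors' TPM of the 10 genes (log horizontal axes) in each tumour library, ordered by the group mean (vertical axes). Vsir leads in H7 at 30.8 and Cd276 in UNKC at 44.2, and Pdcd1lg2 is last in H7 at 0.444 but at 4.17 in UNKC tumours.

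Of 9 other genes of these families and of their binding partners, 4 passed the test in H7 and 2 in UNKC tumours against normal pancreas, and 4 between the lines. Tnfrsf14 (HVEM), the receptor of BTLA, was higher in H7 at 1.98 ± 0.45 log2 units (edgeR adjusted p = 0.0119) and in UNKC tumours at 1.37 ± 0.46 (edgeR adjusted p = 0.0499). Btla, its inhibitory partner on lymphocytes, was lower in H7 tumours at -1.88 (edgeR adjusted p = 0.0267), but at 1.38 with total counts. Rgmb, a binding partner of PD-L2, was higher in H7 tumours than in normal pancreas (1.88 ± 0.27, edgeR adjusted p = 0.00233) and than in UNKC tumours (1.82 ± 0.25, edgeR adjusted p = 0.00609). Rgmb was at 45.1 and 48.1 CPM in H7 and 15.1 and 11.3 in UNKC tumours, so its order between the lines was opposite to that of Pdcd1lg2. Ildr2, a B7-like membrane protein, was lower in H7 libraries than in the normal ones (-3.32 ± 0.59, edgeR adjusted p = 0.00492; -0.093 with total counts) and than in the UNKC ones (-4.29 ± 0.58, edgeR adjusted p = 0.00609). Vsig4 and Igsf11 were lower in H7 than in UNKC tumours as well, and Icos had an edgeR adjusted p of 0.0497 in UNKC tumours. With 98 read pairs there and none in normal pancreas, the floor of 3 pairs allows no bound above equality for Icos. In all, 2 of 9 were higher and 2 lower in H7, beside 29.6% and 21.9% of all tested genes. The 2 higher ones, Tnfrsf14 and Rgmb, are binding partners and not members of these families. In UNKC tumours 2 passed as higher, both just under the threshold, beside 29.1% of all tested genes. DESeq2 and limma-voom each called 1, beside 28.7% and 24.7% of all tested genes. Between the lines 1 was higher and 3 were lower in H7, beside 7.06% and 11.1%.

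Of 24 genes that induce PD-L1 or set its turnover, 11 passed as higher and 6 as lower in H7, and 12 and 5 in UNKC tumours, against normal pancreas. Of all tested genes 29.6% were higher and 21.9% lower in H7, and 29.1% and 19.3% in UNKC tumours. With total counts 23 and 24 of the 24 listed genes passed as higher, where 77.9% and 82.8% of all tested genes did. Irf1, a transcription factor that acts on the Cd274 promoter, rose by 2.38 ± 0.22 and 2.46 ± 0.22 (edgeR adjusted p = 0.000493 and 0.000477). Ifngr2, a chain of the interferon-gamma receptor, rose by 2.36 ± 0.17 and 2.16 ± 0.17. Ifng itself had no read in normal pancreas and at most 1.19 CPM in the tumours, and did not pass the test.

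The genes of this list that fell relative to the bulk of genes include Myc, at -1.65 ± 0.14 in H7 (edgeR adjusted p = 0.000389) and -2.14 ± 0.14 in UNKC tumours (0.000209), but at 1.64 and 1.22 with total counts. Hip1r, which sends PD-L1 to the lysosome, fell by 3.25 log2 units in H7 and by 1.28 in UNKC tumours on the same scale, and stood at 0.029 and 2.08 with total counts. Irf2 and Kmt2a were also lower in both tumour groups and turned higher with total counts. Between the lines the 2 genes that passed were both lower in H7, Hip1r at -1.97 ± 0.20 (edgeR adjusted p = 0.00247) and Ifngr1 at -1.69 ± 0.41 (0.0378). Of all tested genes 7.06% were higher and 11.1% lower in H7 than in UNKC tumours. Ifngr1 stood at 29.1 and 29.2 CPM in H7 and at 98.1 and 89.9 in UNKC tumours. The median of this list was 0.88 in H7 and 0.78 in UNKC tumours, beside 0.34 and 0.42 over all tested genes.

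Of 22 genes of signalling through the T cell receptor, CD28 and PD-1, 6 passed as higher and 2 as lower in H7, and 3 and 3 in UNKC tumours. Of all tested genes 29.6% were higher and 21.9% lower in H7, and 29.1% and 19.3% in UNKC tumours, so the list did not exceed these shares. The 3 listed genes that were higher in both groups, Grb2, Bcl10 and Ptpn11, act in many cell types. Grb2, an adaptor of growth factor receptors, rose by 2.47 ± 0.19 in H7 and by 2.41 ± 0.19 in UNKC tumours (edgeR adjusted p = 0.000281 and 0.000314). Ptpn11 (SHP-2), the phosphatase that PD-1 recruits, rose by 1.05 ± 0.15 and 1.26 ± 0.15 (edgeR adjusted p = 0.00191 and 0.00110). Ptpn6 (SHP-1), its relative in blood cells, was higher in H7 libraries than in the normal ones (1.82 ± 0.33, edgeR adjusted p = 0.00508) and than in UNKC tumours (1.15 ± 0.28, edgeR adjusted p = 0.0411). The T cell kinases and adaptors Lck, Zap70 and Lat did not pass in any comparison. The transcription factor Nfatc2 fell by 2.82 log2 units in H7 and by 3.11 in UNKC tumours, but stood at 0.46 and 0.25 with total counts. Between the lines Pik3r1 was also higher and Fyn lower in H7.

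Of 15 other inhibitory receptors and ligands 7 were higher in both tumour groups: Havcr2, Pvr, Nectin2, Lgals9, Cd47, Sirpa and Lgals3. Of all tested genes 29.6% were higher in H7 and 29.1% in UNKC tumours. In H7 tumours Ceacam1 and Cd200 were lower, at -1.36 and -1.89, beside 21.9% of all tested genes. Both turned with total counts, to 1.98 and 1.35. Cd47, the signal to macrophages not to engulf a cell, rose by 2.43 ± 0.22 in H7 and by 2.32 ± 0.22 in UNKC tumours (edgeR adjusted p = 0.000477 and 0.000593). Havcr2 (TIM-3) was at 8.02 and 9.83 CPM in H7, 9.80 and 7.45 in UNKC, and 0.926 and 0 in normal pancreas. Between the lines Nectin2, a ligand of TIGIT and CD226, was lower in H7 at -1.20 ± 0.20 (edgeR adjusted p = 0.0116), as was Cd226.

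The likeness of each member's log2 CPM over the 6 libraries to 156 listed genes is given as a description. The points share depth and ribosomal share within the normal and within the tumour libraries, and a match can also rest on which normal library had no read. Cd86 and Cd276 had none in normal replicate 2, as had Batf3, Havcr2 and Cd8b1 among their nearest genes, and Cd80 had none in normal replicate 1, as had C1qb and Il2ra. Cd274 was most like Cmtm6, which protects PD-L1 from degradation, at a Pearson r of 0.997, followed by Lgals9 and Cd47. Among 9578 genes of at least 5 CPM it was most like Ncstn, Pip4p2, Wls, Mapkapk2 and Ipo9. Vsir was most like the myeloid integrin Itgax (0.997), C1qa and C1qc, and Cd86 most like Batf3, Havcr2 and Spop. Pdcd1lg2 was most like the epithelial genes Krt7 (0.881) and Cdh1, then Vsig4. Pdcd1 was most like Irf1, Jak2 and Icos, Ctla4 like Icos, Cd3d and Cmtm4, and Cd28 like Cxcl13 (0.984), with Ms4a1 also among its nearest 3. Cd276 was most like Havcr2, Cop1 and Cd8b1, Cd80 like C1qb, Grap2 and Il2ra, and Icosl like Clec9a, Stub1 and Pik3r1.

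In the authors' deposited table, for Cd274 the log2 fold change was 2.08 in H7 (adjusted p = 0.00129) and 1.94 in UNKC tumours (0.00176), from DESeq2. The authors' deposited table gave Pdcd1 at 1.08 in H7 (adjusted p = 0.124) and at 2.16 in UNKC tumours (0.0388), so its H7 value missed the threshold there. For Pdcd1lg2 in UNKC tumours the authors' deposited table gave 0.85 (adjusted p = 0.274), where the edgeR fit gave 2.11. The deposited and the edgeR log2 values cannot be compared directly in size. For Ctla4 in H7, with no read in normal pancreas, they were 0.24 and 7.48, and the reason was not tested. For Cd86 in H7 tumours the authors' deposited table gave 1.81 (adjusted p = 0.0161), and for Cd28 -2.08 (0.00529).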

How the data were processed

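Per the labels, total RNA of 6 samples was sequenced. Per the submitters' processing notes, the authors used STAR, featureCounts and DESeq2 1.18.1 with mm10. The deposited per-sample files hold raw read counts. They hold both mates of a pair (1.98 to 2.00 reads per fragment of the authors' tables). The authors' 2 tables hold fragment counts, TPM (recomputed here from fragments and length), log2 fold changes and p-values with adjusted p-values, as deposited. Symbols came from those tables (16286 genes) or RefSeq (9355), and 1538 genes had none. Whether counting used strand is not given in the sources used here.

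Genes passing filterByExpr (16306) were scaled with TMM and tested with the edgeR 4.0.16 quasi-likelihood model on all 6 libraries (R 4.3.3, limma 3.58.1, DESeq2 1.42.0 as alternatives), with p-values adjusted by Benjamini-Hochberg across the table and called below 0.05. The procedure was tested on simulated data. Shares and pooled folds use the authors' fragment counts with exact 95% binomial intervals (SciPy 1.17.1), which cover counting error only. TMM factors ranged from 2.07 to 2.23 for tumour libraries and were 0.179 and 0.256 for the normal ones, and replicates correlated across genes at 0.967 (H7), 0.949 (UNKC) and 0.801 (normal), genes not being independent.

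The members and gene lists were chosen with earlier results of these data known. Named genes are all members and, per pathway list and comparison, up to 3 genes called in each direction by size where the higher group averages 5 CPM or more. The pathway lists were also counted under total counts, DESeq2 and limma-voom after seeing the data, as was the dendritic list without Itgax. Others named behind a count were chosen after their values were seen. Nearest likeness is the highest Pearson r. The alternatives cover scaling, filters, tools, counting unit, depth, a replicate block and each library left out. Some genes of the lists are counted but not reported here by name.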

Additional observations from a re-analysis of the deposited data

Results flagged for a closer look

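Pdcd1lg2 and Vsir are singled out because the change against normal pancreas differed between the lines, by the direct test of H7 against UNKC tumours. For Pdcd1lg2 the log2 difference was -3.07 (edgeR adjusted p = 0.00207), with both H7 libraries below both UNKC libraries. For Vsir it was 0.81 (edgeR adjusted p = 0.0207), with both H7 libraries above both UNKC libraries.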

How the results depend on the processing

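The counts of members past the threshold, 5 higher and 1 lower in H7, 5 and 0 in UNKC tumours and 1 and 1 between the lines, moved as follows. With total counts they were 9 and 0, 10 and 0, and 0 and 1, where 77.9% of all genes were higher and 3.21% lower in H7, 82.8% and 1.91% in UNKC tumours, and 3.97% and 9.13% between the lines. At that scaling 10 in place of 6 members had all tumour libraries above both normal libraries. The 6 include Ctla4, whose tumour CPM lie below the value of 2 reads in either normal library. In H7 tumours 3 were higher with upper-quartile factors (22.9% of all genes), with only the 4 libraries compared (27.5%), on the authors' fragment counts (27.4%) and in thinned tumours (27.9%). In thinned tumours 0 were lower, beside 25.5% of all genes, and Cd28 no longer passed the filter on low counts there. DESeq2 called 1 lower in UNKC tumours, beside 26.3% of all genes. Between the lines it called 2 higher and 3 lower, beside 16.7% and 16.5% of all genes. limma-voom and the fit of only the 4 libraries called 2 higher and 2 lower between the lines. Of all genes limma-voom called 14.4% higher and 16.7% lower there, and the fit of only the 4 libraries 14.4% and 15.5%. Leaving out each library in turn gave 3 to 5 higher and 0 to 1 lower in H7, 3 to 6 and 0 to 1 in UNKC tumours, and 0 to 2 and 1 to 2 between the lines. With both libraries with muscle reads left out, an alternative added after seeing the data, all 6 counts were 0 in edgeR, as was the count over all genes, with fewer libraries. In the other settings these counts stayed within 1.5 times.

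Cd274, Cd276 and Vsir passed against normal pancreas in both lines in every fit except that one. Signs changed with total counts for Cd28 (0.87 in H7, 2.32 in UNKC), Icosl (3.10 and 2.63) and Pdcd1lg2 in H7 (2.31), and with upper-quartile factors for Cd80 in UNKC (-0.094). They also changed for Cd274 between the lines with the muscle libraries left out (-0.057). Over the fits without 1 library the log2 values ran from -0.0026 to 0.28 for Cd274 between the lines, from -0.24 to 9.69 and from -0.73 to 9.20 for Cd80 in H7 and UNKC, and from -0.60 to 0.35 for Icosl in H7; the cause was not tested. The 9.69 and 9.20 come from a normal group with no read left and are not folds.

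The replicate numbers did not pair the tumours with normal pancreas: the deviations correlated at -0.0122 for H7 and normal, and -0.0232 for UNKC and normal pancreas. For H7 and UNKC the deviations correlated at 0.526, so these groups shared part of the difference between their replicates. Whether the tumour libraries were paired was not tested. With the replicate block 4 members were higher and 1 lower in H7, 4 and 0 in UNKC tumours, and 1 and 1 between the lines.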
